A study of Mus musculus with 12 samples.

Results

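The EGR, IER and related immediate early genes described here are 10 genes, namely Egr1, Egr2, Egr3, Ier2, Ier3, Ier5, Btg2, Atf3, Zfp36 and Nr4a1, of 18255 genes listed across 12 RNA-seq libraries of 3T3-L1 cells, a mouse fibroblast-like line that turns into adipocytes under hormones. The genes were chosen by name, with earlier results of these libraries known, so the counts below describe them and are no independent evidence about the class. Their symbols were found in all 12 tables, and all 10 were among the 12993 genes that passed the filter on low counts. Tnfsf14 selected no gene, but its level marked a pair of libraries. The numbers of the 10 genes called are also given without that pair, and so are many single values.

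The libraries fall into 4 groups of 3. LIGHT-Diff is the LIGHT-overexpressing line after beige differentiation (LIGHT, a cytokine of the TNF family, is the product of Tnfsf14), and NC-Diff is the control line at that stage. LIGHT-Undiff and NC-Undiff are the same lines in growth medium with high glucose and fetal bovine serum, before differentiation. Both Diff groups had received a cocktail of dexamethasone, IBMX, rosiglitazone, triiodothyronine, indomethacin and insulin for 48 h and then rosiglitazone, triiodothyronine and insulin. The sources used here do not give the day of harvest, the time since the last medium change, the vector, or whether each line was 1 clone. No label states separate cultures for the 3 replicates of a group, so the spread behind each p-value is that between these libraries and may be technical.

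Immediate early genes are those whose transcription starts soon after a growth factor, cytokine, hormone or stress reaches the cell, without any need for new protein. Many are switched on through serum response factor and its ETS partners at CArG boxes, or through CREB at cyclic AMP response elements (CRE), and their mRNAs are usually short-lived. In 3T3-L1 cells serum and the adipogenic cocktail are both known to induce such genes transiently. The EGR proteins are zinc finger transcription factors, NR4A1 is an orphan nuclear receptor and ATF3 a bZIP factor of the stress response. ZFP36 acts on mRNA by binding AU-rich elements and BTG2 through the CCR4-NOT deadenylase, and the IER proteins are small regulators with no DNA-binding domain of the EGR kind.

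Promoter windows of 300 bases, from 250 before to 50 after a RefSeq start, were at hand for 7 of the 10 genes (RefSeq, build GRCm38.p6, which is not the build of the count tables); those of Egr1, Egr3 and Ier2 were not used here. The windows of Egr2, Zfp36, Btg2 and Nr4a1 are printed because these genes were higher in LIGHT-Undiff than in NC-Undiff libraries, and those of Atf3, Ier3 and Ier5 because they did not pass that test. Sequences run 5′ to 3′ on the strand of the gene, and capitals mark matches to the CArG box, the CRE TGACGTCA, its shorter core TGACG, or the EGR site (GCGGGGGCG or GCGTGGGCG), each on both strands. The motifs were picked after the windows had been looked at. Coordinates are chr10:67537619-67537918 (plus strand) for Egr2, chr7:28379179-28379478 (minus) for Zfp36, chr1:134079106-134079405 (minus) for Btg2, chr15:101266596-101266895 (plus) for Nr4a1, chr1:191183284-191183583 (minus) for Atf3, chr17:35821463-35821762 (plus) for Ier3 and chr1:155099587-155099886 (minus) for Ier5.
Egr2: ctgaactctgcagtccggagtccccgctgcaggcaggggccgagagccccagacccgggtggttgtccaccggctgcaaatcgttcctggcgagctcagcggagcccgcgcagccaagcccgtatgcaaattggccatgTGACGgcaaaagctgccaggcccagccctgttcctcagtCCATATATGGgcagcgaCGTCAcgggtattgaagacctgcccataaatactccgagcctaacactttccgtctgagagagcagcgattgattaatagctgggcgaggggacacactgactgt
Zfp36: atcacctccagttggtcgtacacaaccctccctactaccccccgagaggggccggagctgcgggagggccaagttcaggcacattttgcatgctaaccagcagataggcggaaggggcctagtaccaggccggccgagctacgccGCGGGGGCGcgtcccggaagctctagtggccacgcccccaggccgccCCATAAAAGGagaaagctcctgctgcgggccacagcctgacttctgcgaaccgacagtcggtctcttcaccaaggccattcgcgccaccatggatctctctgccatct
Btg2: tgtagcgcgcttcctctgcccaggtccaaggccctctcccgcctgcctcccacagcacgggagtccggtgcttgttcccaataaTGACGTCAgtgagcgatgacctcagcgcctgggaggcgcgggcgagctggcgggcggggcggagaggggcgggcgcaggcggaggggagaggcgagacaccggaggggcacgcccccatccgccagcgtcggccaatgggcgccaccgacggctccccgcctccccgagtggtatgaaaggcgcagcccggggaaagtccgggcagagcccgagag
Nr4a1: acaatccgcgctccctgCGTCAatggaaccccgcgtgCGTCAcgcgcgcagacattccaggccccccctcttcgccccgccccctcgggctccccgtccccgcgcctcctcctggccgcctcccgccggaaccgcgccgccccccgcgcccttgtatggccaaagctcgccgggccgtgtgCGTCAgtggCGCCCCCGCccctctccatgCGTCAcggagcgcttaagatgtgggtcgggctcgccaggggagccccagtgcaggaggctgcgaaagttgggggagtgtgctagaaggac
Atf3: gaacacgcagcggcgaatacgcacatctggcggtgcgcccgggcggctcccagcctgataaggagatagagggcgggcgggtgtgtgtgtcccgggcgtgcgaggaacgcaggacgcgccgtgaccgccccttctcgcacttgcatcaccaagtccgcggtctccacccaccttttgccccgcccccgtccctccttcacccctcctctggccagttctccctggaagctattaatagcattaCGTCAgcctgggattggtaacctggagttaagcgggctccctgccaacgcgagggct
Ier3: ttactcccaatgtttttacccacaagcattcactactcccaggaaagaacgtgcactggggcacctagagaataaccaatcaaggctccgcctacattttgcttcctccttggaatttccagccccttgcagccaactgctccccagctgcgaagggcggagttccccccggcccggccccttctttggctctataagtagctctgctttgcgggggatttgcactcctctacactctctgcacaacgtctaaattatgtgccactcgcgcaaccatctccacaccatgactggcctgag
Ier5: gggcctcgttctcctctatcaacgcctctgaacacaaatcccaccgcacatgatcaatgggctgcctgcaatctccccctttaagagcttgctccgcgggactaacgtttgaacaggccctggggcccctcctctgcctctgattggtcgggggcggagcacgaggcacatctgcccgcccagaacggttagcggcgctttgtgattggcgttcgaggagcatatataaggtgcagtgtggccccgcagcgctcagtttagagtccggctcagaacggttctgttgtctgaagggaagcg

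The printed Egr2 window held the CArG box CCATATATGG, whose first base lies 72 bases before the start, and CRE cores 111 and 55 bases before it. A CArG box was found in 4 of the 5 RefSeq windows of Egr2. Windows that overlap the printed one held the same box CCATATATGG, and another window held CCTTTTTTGG. The Zfp36 window held the CArG box CCATAAAAGG 58 bases before the start and an EGR site 105 bases before it. Among all 32851 windows searched (27025 genes, with a chromosome left out), 1.63% held a CArG box and 3.47% an EGR site. The Btg2 window held a whole CRE 166 bases before its start, which overlaps both of its core matches, against 1.79% of all windows with a whole CRE. The Nr4a1 window held 4 CRE cores (233, 213, 69 and 40 bases before the start) and an EGR site at 60, and the Atf3 window held 1 CRE core 7 bases before the start, against 20.8% of all windows with at least 1 core. In the Ier3 and Ier5 windows these letters were not found. These matches describe sequence and are not shown to be bound.

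Each library held 16334079 to 19686675 expected counts, so that 3 counts were worth 0.152 to 0.184 CPM (counts scaled to the library total). The counts of the 10 genes ran over 19 to 5793 per library. The 7 adipocyte markers summed to 15560.5 to 21127 CPM in LIGHT-Diff and 15763 to 21235 CPM in NC-Diff libraries, against 187 to 225 CPM in LIGHT-Undiff and 205 to 241 CPM in NC-Undiff libraries. The 7 fibroblast markers summed to 14588 to 18825 CPM in LIGHT-Diff, 13865 to 21317 in NC-Diff, 18939 to 20699 in LIGHT-Undiff and 10558 to 12534 in NC-Undiff libraries, so that the undifferentiated groups did not overlap. The 4 listed of 7 leukocyte markers summed to no more than 3.87 CPM in any library, with Adgre1 and Cd3e not listed. The 7 listed of 9 endothelial, epithelial and muscle markers summed to 5.36 to 13.2 CPM in LIGHT-Diff, 5.59 to 15.4 in NC-Diff, 1.72 to 2.83 in LIGHT-Undiff and 3.76 to 5.01 in NC-Undiff libraries, with Epcam and Myod1 not listed.

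Tnfsf14 went against the label of 1 library in each differentiated group. It had 0, 148 and 122 counts in LIGHT-Diff libraries 1, 2 and 3, against 113, 0 and 0 in NC-Diff libraries. Before differentiation it had 38, 53 and 58 counts in LIGHT-Undiff libraries, against 0, 1 and 0 in NC-Undiff libraries. The libraries labelled LIGHT-Diff 1 and NC-Diff 1 also stood apart from their groups over all genes, where chi-square per gene was 34.4 to 47.9 in pairs with either of them and 2.49 to 7.18 in all other pairs within a group.

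For the 10 genes this pair was set beside the other differentiated libraries. The library labelled LIGHT-Diff 1 lay nearer to the mean of NC-Diff 2 and 3 than to that of LIGHT-Diff 2 and 3 in 10 of 10 genes, by log2 CPM, as it did in 71.0% of all genes tested. The library labelled NC-Diff 1 lay nearer to LIGHT-Diff 2 and 3 in 5 genes, Egr3, Ier3, Ier5, Btg2 and Atf3, and nearer to NC-Diff 2 and 3 in the other 5, Egr1, Egr2, Ier2, Zfp36 and Nr4a1, whereas it lay nearer to LIGHT-Diff 2 and 3 in 72.2% of all genes tested. Results are given for all 12 libraries as labelled. Numbers of genes called and many single values are given again for the 10 libraries without this pair.

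**Figure D1:**
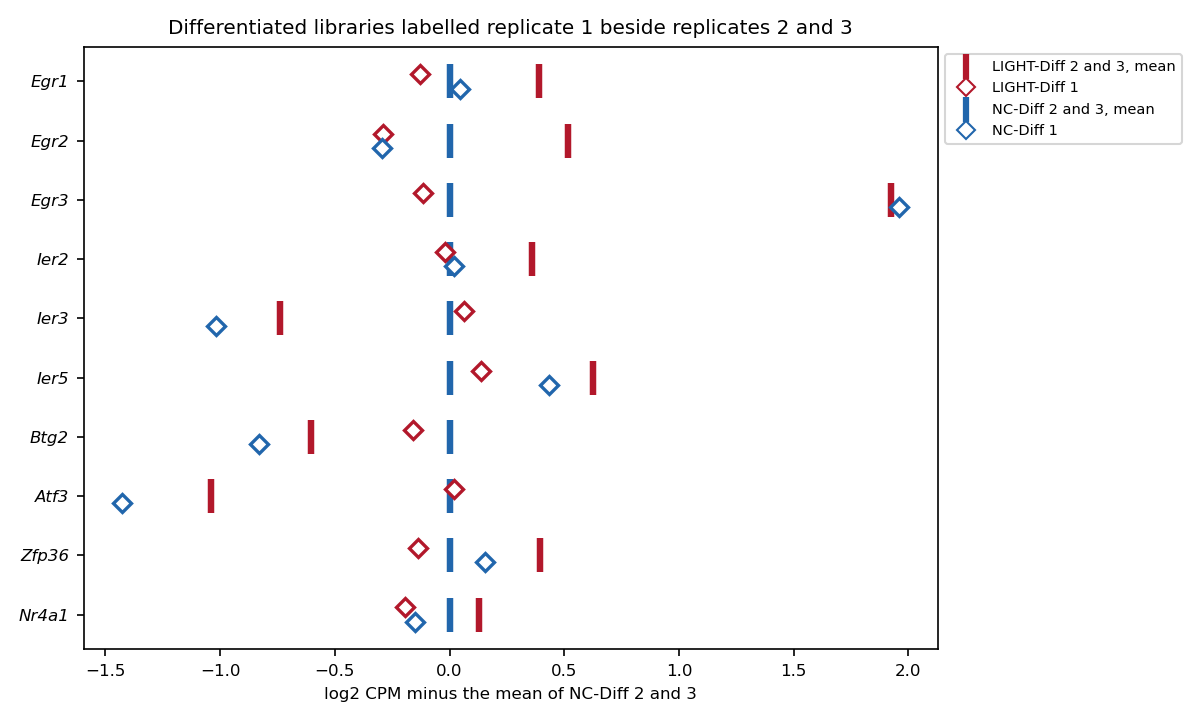
Position of the differentiated libraries labelled replicate 1 for the 10 genes. The x axis is log2 CPM minus the mean of NC-Diff 2 and 3; diamonds are LIGHT-Diff 1 (red) and NC-Diff 1 (blue), and vertical bars are the means of LIGHT-Diff 2 and 3 (red) and NC-Diff 2 and 3 (blue, at 0). The red diamond is nearer the blue bar in 10 of 10 genes, and the blue diamond is nearer the red bar in 5.

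Of the EGR genes, Egr1 and Egr2 were lowest in undifferentiated control cells, while Egr3 had another pattern. Egr1, the most abundant EGR gene and a zinc finger factor induced by serum, stood at 213, 306 and 305 CPM in LIGHT-Diff libraries 1, 2 and 3 and at 241, 233 and 233 CPM in NC-Diff libraries. Before differentiation Egr1 was at 213, 235 and 223 CPM in LIGHT-Undiff libraries, against 33.3, 30.8 and 31.9 CPM in NC-Undiff libraries. All 9 libraries of the other groups thus lay above the 3 NC-Undiff libraries, while LIGHT-Diff, NC-Diff and LIGHT-Undiff overlapped one another. In the group order, LIGHT-Diff averaged 275 ± 53.2, NC-Diff 236 ± 4.49, LIGHT-Undiff 224 ± 11.1 and NC-Undiff 32.0 ± 1.26 CPM (SD, n = 3 each).

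Egr1 was 6.99-fold higher in LIGHT-Undiff than in NC-Undiff libraries, or by 2.81 on the log2 scale (SE 0.12, adjusted p = 1.99e-07, edgeR's quasi-likelihood test with Benjamini-Hochberg adjustment over all genes tested, as for every adjusted p below unless another tool is named). On differentiation it rose 1.23-fold in LIGHT cells (log2 0.30, SE 0.11, adjusted p = 0.0359, edgeR) and 7.37-fold in control cells (log2 2.88, SE 0.12, adjusted p = 9.97e-10, edgeR). The call in LIGHT cells was lost with library totals in place of TMM scaling (adjusted p = 0.138), with only the groups compared (0.0741), with limma on FPKM (0.182), and without any 1 of LIGHT-Diff 2, LIGHT-Diff 3, LIGHT-Undiff 1 or LIGHT-Undiff 3. In 10 libraries, with 2 in LIGHT-Diff, Egr1 rose by 0.46 in LIGHT cells (SE 0.05, adjusted p = 2.01e-07, edgeR), and the groups did not overlap. Between LIGHT-Diff and NC-Diff the log2 fold change was 0.22 (SE 0.11, adjusted p = 0.913, edgeR) in 12 libraries and 0.38 (SE 0.06, adjusted p = 3.95e-05, edgeR) in 10.

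Egr2, a related factor known for its part in 3T3-L1 adipogenesis and in myelination, was low in counts. It was at 4.799, 8.61 and 8.35 CPM in LIGHT-Diff libraries, against 4.79, 6.36 and 5.45 CPM in NC-Diff libraries. In undifferentiated cells it was at 11.9, 14.2 and 11.2 CPM in LIGHT-Undiff libraries, against 3.58, 1.07 and 1.46 CPM in NC-Undiff libraries. LIGHT-Undiff was the highest group and NC-Undiff the lowest, neither overlapping another group, and LIGHT-Diff and NC-Diff overlapped. The LIGHT-Undiff libraries were 6.10-fold above NC-Undiff (log2 2.61, SE 0.36, adjusted p = 0.000305, edgeR). On differentiation the log2 change of Egr2 in LIGHT cells was -0.77 (SE 0.32, adjusted p = 0.0530, edgeR), and in control cells it rose by 1.44 (SE 0.36, adjusted p = 0.00385, edgeR). Without the pair of libraries the change in LIGHT cells was -0.55 (SE 0.24, adjusted p = 0.0491, edgeR), a call that DESeq2 did not make (adjusted p = 0.266). That call was also lost with a replicate block (adjusted p = 0.148, edgeR) and without any 1 of LIGHT-Undiff 1, 2 or 3 (adjusted p = 0.0501 to 0.158, edgeR). In the same 10 libraries the difference between LIGHT-Diff and NC-Diff was 0.52 (SE 0.27, adjusted p = 0.162, edgeR).

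Egr3, the least abundant EGR gene per length in 3 of the 4 groups, split by line in both stages once the pair of libraries was set aside. It was at 2.49, 9.93 and 11.3 CPM in LIGHT-Diff libraries 1, 2 and 3, against 10.9, 2.73 and 2.70 CPM in NC-Diff libraries 1, 2 and 3. Before differentiation it was at 10.6, 9.69 and 10.3 CPM in LIGHT-Undiff libraries, against 5.25, 4.89 and 4.72 CPM in NC-Undiff libraries. LIGHT-Diff 1 thus had the level of NC-Diff 2 and 3, and NC-Diff 1 that of LIGHT-Diff 2 and 3. In 12 libraries Egr3 passed none of the tests, and its log2 fold change before differentiation was 1.04 (SE 0.53, adjusted p = 0.169, edgeR) although LIGHT-Undiff and NC-Undiff did not overlap. In 10 libraries it was 3.89-fold higher in LIGHT-Diff than in NC-Diff (log2 1.96, SE 0.17, adjusted p = 9.44e-08, edgeR) and 2.07-fold higher in LIGHT-Undiff than in NC-Undiff (log2 1.05, SE 0.13, adjusted p = 2.77e-06, edgeR). On differentiation its log2 change in LIGHT cells was then 0.06 (SE 0.14, adjusted p = 0.705, edgeR), and in control cells it fell by 0.84 (SE 0.17, adjusted p = 0.000252, edgeR).

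**Figure D2:**
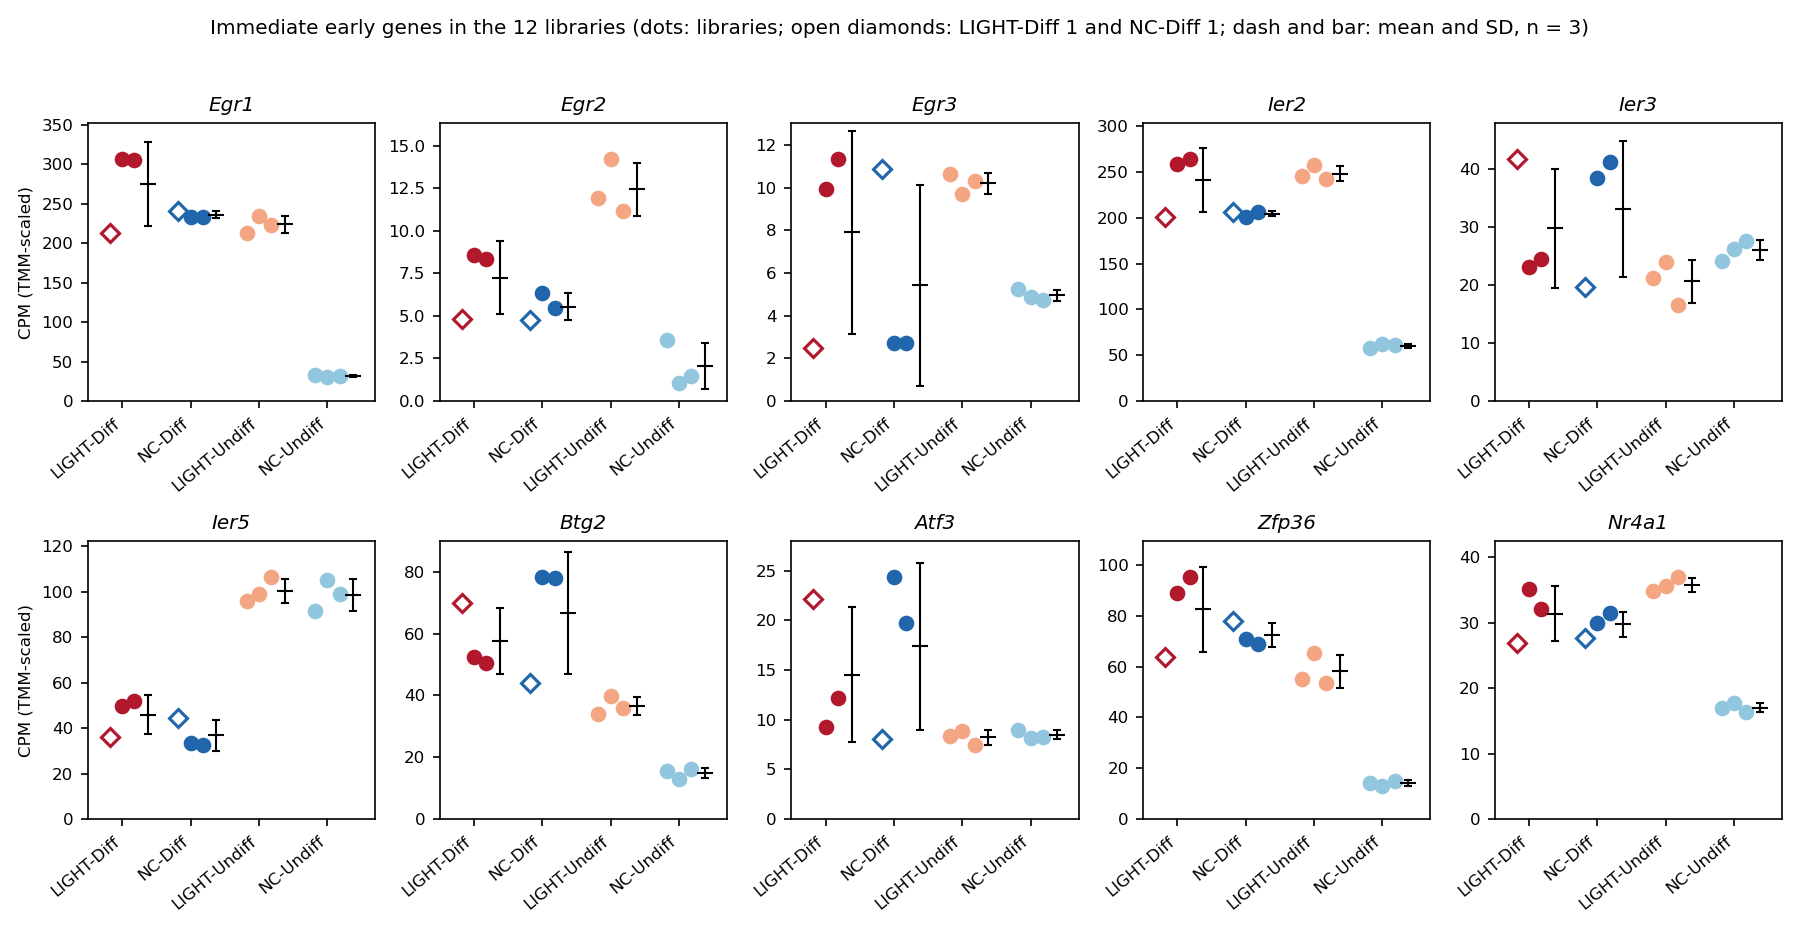
TMM-scaled CPM of the 10 immediate early genes in each library, by group. Dots are libraries, open diamonds are LIGHT-Diff 1 and NC-Diff 1, and the dash and bar give the mean and SD of the 3 libraries. For Egr1, Egr2, Ier2, Btg2, Zfp36 and Nr4a1 the 3 NC-Undiff libraries lie below all 9 others, and the share of all genes with this arrangement is not given here. For Egr3, Ier3, Ier5, Btg2 and Atf3 both diamonds lie away from the dots of their group. For Egr1, Egr2, Ier2, Zfp36 and Nr4a1 the LIGHT-Diff 1 diamond lies below the dots of its group.

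The IER genes did not move as one. Ier2, a small nuclear protein gene induced by serum, was at 201, 259 and 264 CPM in LIGHT-Diff libraries and 207, 201 and 206 CPM in NC-Diff libraries. It was at 245, 258 and 242 CPM in LIGHT-Undiff libraries, against 57.5, 62.4 and 60.9 CPM in NC-Undiff libraries. NC-Undiff was thus apart from the other 3 groups, as for Egr1, and LIGHT-Undiff and LIGHT-Diff overlapped. Ier2 was 4.12-fold higher in LIGHT-Undiff than in NC-Undiff libraries (log2 2.04, SE 0.09, adjusted p = 1.99e-07, edgeR). On differentiation its log2 change in LIGHT cells was -0.04 (SE 0.09, adjusted p = 0.704, edgeR) in 12 libraries and 0.08 (adjusted p = 0.177, edgeR) in 10. In control cells it rose by 1.76 on the log2 scale (SE 0.09, adjusted p = 6.40e-09, edgeR). Between LIGHT-Diff and NC-Diff its log2 fold change was 0.24 (SE 0.09, adjusted p = 0.913, edgeR) in 12 libraries and 0.35 (SE 0.06, adjusted p = 7.86e-05, edgeR) in 10.

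Ier3, also known as IEX-1, a target of NF-κB and p53 that acts on cell survival, had the opposite arrangement after differentiation. It was at 41.6, 23.1 and 24.4 CPM in LIGHT-Diff libraries 1, 2 and 3, against 19.6, 38.5 and 41.1 CPM in NC-Diff libraries 1, 2 and 3. In undifferentiated cells it was at 21.2, 24.0 and 16.5 CPM in LIGHT-Undiff libraries, against 24.1, 26.2 and 27.5 CPM in NC-Undiff libraries. LIGHT-Undiff was the lowest group by its mean and NC-Diff the highest, and the Diff groups overlapped because of the libraries labelled 1. Ier3 passed no test in 12 libraries. In 10 libraries it was lower in LIGHT-Diff than in NC-Diff (log2 -0.75, SE 0.12, adjusted p = 0.000106, edgeR) and lower in LIGHT-Undiff than in NC-Undiff (log2 -0.32, SE 0.10, adjusted p = 0.0160, edgeR). The call before differentiation was lost without LIGHT-Undiff 3 (adjusted p = 0.0961) or NC-Undiff 3 (adjusted p = 0.0639). On differentiation its log2 change in LIGHT cells was 0.21 (SE 0.12, adjusted p = 0.116, edgeR), and in control cells it rose by 0.64 (SE 0.11, adjusted p = 3.08e-05, edgeR).

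Ier5, known as a coregulator of heat shock factor HSF1, was the gene of the 10 that fell on differentiation in both lines. It was at 36.2, 49.9 and 51.7 CPM in LIGHT-Diff libraries and 44.5, 33.5 and 32.4 CPM in NC-Diff libraries. In undifferentiated cells it was at 95.98, 99.2 and 106 CPM in LIGHT-Undiff libraries, against 91.6, 105 and 98.9 CPM in NC-Undiff libraries. The undifferentiated groups overlapped each other and lay wholly above the differentiated ones. Ier5 fell by 1.13 on the log2 scale in LIGHT cells (SE 0.14, adjusted p = 1.68e-05, edgeR) and by 1.42 in control cells (SE 0.14, adjusted p = 1.91e-06, edgeR). The log2 fold change between the lines was 0.03 before differentiation (SE 0.13, adjusted p = 0.908, edgeR) and 0.32 after it (SE 0.14, adjusted p = 0.913, edgeR). In 10 libraries it was 1.53-fold higher in LIGHT-Diff than in NC-Diff (log2 0.62, SE 0.08, adjusted p = 1.16e-05, edgeR). The 6 heat shock genes listed as a sign of handling summed to 889 to 990.1 CPM in LIGHT-Diff and 852 to 1038 in NC-Diff libraries. Before differentiation they summed to 1146 to 1174 CPM in LIGHT-Undiff and 1489.9 to 1585 in NC-Undiff libraries. Hspa1a was at 0 counts in all groups but NC-Undiff. Most of the sum was Hsp90aa1, at 710 ± 29.2 CPM in LIGHT-Undiff and 1085 ± 37.7 CPM in NC-Undiff libraries. Of 4 tested, Hspa1b was higher in LIGHT-Undiff than in NC-Undiff (log2 0.57, SE 0.10, adjusted p = 0.00126, edgeR). Hsp90aa1 and Hsph1 were lower (log2 -0.61 and -0.45), where 12.3% of all genes were higher and 14.2% lower. The part of these genes in the result was not tested.

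Nr4a1, the nuclear receptor gene also called Nur77, varied least over the 12 libraries, by 2.26-fold between its highest and its lowest library. It was at 26.9, 35.2 and 32.1 CPM in LIGHT-Diff libraries and 27.7, 30.0 and 31.5 CPM in NC-Diff libraries. In undifferentiated cells it was at 34.8, 35.6 and 36.9 CPM in LIGHT-Undiff libraries, against 16.9, 17.8 and 16.3 CPM in NC-Undiff libraries. NC-Undiff again lay below the 3 other groups, and LIGHT-Undiff and LIGHT-Diff overlapped. Nr4a1 was 2.10-fold higher in LIGHT-Undiff than in NC-Undiff libraries (log2 1.07, SE 0.10, adjusted p = 1.93e-05, edgeR). Its log2 change on differentiation was -0.19 in LIGHT cells (SE 0.09, adjusted p = 0.106, edgeR), and in control cells it rose by 0.81 (SE 0.10, adjusted p = 1.24e-05, edgeR). Between LIGHT-Diff and NC-Diff the log2 fold change was 0.08 (SE 0.10, adjusted p = 0.917, edgeR) in 12 libraries and 0.12 (SE 0.09, adjusted p = 0.301, edgeR) in 10.

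Of the genes that act on mRNA, Zfp36, which encodes tristetraprolin, was at 63.6, 88.9 and 95.1 CPM in LIGHT-Diff libraries and 77.8, 70.9 and 68.8 CPM in NC-Diff libraries. It was at 55.2, 65.5 and 53.6 CPM in LIGHT-Undiff libraries, against 14.3, 12.8 and 15.1 CPM in NC-Undiff libraries. LIGHT-Diff overlapped NC-Diff and LIGHT-Undiff, and NC-Undiff lay apart. Zfp36 was 4.13-fold higher in LIGHT-Undiff than in NC-Undiff libraries (log2 2.04, SE 0.14, adjusted p = 3.81e-06, edgeR). On differentiation it rose 1.42-fold in LIGHT cells (log2 0.51, SE 0.13, adjusted p = 0.00527, edgeR) and 5.15-fold in control cells (log2 2.36, SE 0.14, adjusted p = 2.51e-08, edgeR). Between LIGHT-Diff and NC-Diff its log2 fold change was 0.19 (SE 0.13, adjusted p = 0.913, edgeR) in 12 libraries and 0.39 (SE 0.09, adjusted p = 0.00206, edgeR) in 10.

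Btg2, an antiproliferative gene that p53 also induces, was at 69.9, 52.3 and 50.4 CPM in LIGHT-Diff libraries 1, 2 and 3, against 43.9, 78.2 and 77.9 CPM in NC-Diff libraries 1, 2 and 3. In undifferentiated cells it was at 33.9, 39.8 and 35.8 CPM in LIGHT-Undiff libraries, against 15.5, 13.0 and 16.2 CPM in NC-Undiff libraries. The Diff groups lay above LIGHT-Undiff, which lay above NC-Undiff, and only the Diff groups overlapped. Btg2 was 2.45-fold higher in LIGHT-Undiff than in NC-Undiff libraries (log2 1.30, SE 0.21, adjusted p = 0.000854, edgeR). On differentiation it rose 1.57-fold in LIGHT cells (log2 0.65, SE 0.19, adjusted p = 0.0114, edgeR) and 4.48-fold in control cells (log2 2.16, SE 0.21, adjusted p = 1.48e-06, edgeR). The order of the lines turned round with the stage in 10 libraries, where Btg2 was lower in LIGHT-Diff than in NC-Diff (log2 -0.61, SE 0.09, adjusted p = 2.57e-05, edgeR). In 12 libraries that difference was -0.21 (SE 0.19, adjusted p = 0.913, edgeR).

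Atf3, the stress-induced bZIP gene, was at 22.2, 9.24 and 12.2 CPM in LIGHT-Diff libraries 1, 2 and 3, against 8.08, 24.3 and 19.7 CPM in NC-Diff libraries 1, 2 and 3. In undifferentiated cells it was at 8.33, 8.90 and 7.41 CPM in LIGHT-Undiff libraries, against 9.004, 8.20 and 8.22 CPM in NC-Undiff libraries. NC-Diff 2 and 3 and LIGHT-Diff 1 held the 3 highest values, and the undifferentiated groups overlapped. On differentiation the log2 change of Atf3 in LIGHT cells was 0.82 (SE 0.36, adjusted p = 0.0681, edgeR). It rose 2.05-fold in control cells (log2 1.04, SE 0.36, adjusted p = 0.0232, edgeR), a call lost without any 1 of NC-Diff 2 or 3 or NC-Undiff 1, 2 or 3 (adjusted p = 0.0509 to 0.109) and with limma on FPKM (adjusted p = 0.0792). In 10 libraries Atf3 rose 1.30-fold in LIGHT cells (log2 0.38, SE 0.15, adjusted p = 0.0304, edgeR) and 2.64-fold in control cells (log2 1.40, SE 0.14, adjusted p = 2.46e-08, edgeR), the call in LIGHT cells being lost without LIGHT-Diff 3 (log2 0.18, adjusted p = 0.425), LIGHT-Undiff 1 (adjusted p = 0.0526) or LIGHT-Undiff 3 (adjusted p = 0.0996). Without LIGHT-Diff 3 that group holds 1 library, which is assumed to vary like the other groups. With all 10 libraries Atf3 was lower in LIGHT-Diff than in NC-Diff libraries (log2 -1.05, SE 0.15, adjusted p = 3.30e-05, edgeR), and its difference between the lines before differentiation was -0.03 (SE 0.14, adjusted p = 0.868, edgeR).

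Before differentiation, 6 of the 10 genes were higher in LIGHT than in control cells, 0 were lower and 4 did not pass the test, among all 12993 genes of which 12.3% were higher and 14.2% lower. The 6 were Egr1, Egr2, Ier2, Btg2, Zfp36 and Nr4a1. The median log2 fold change of the 10 was 1.18, beside -0.01 over all genes tested. In 8 of the 10 the 2 groups did not overlap, as in 52.3% of all genes tested. Of the 7 fibroblast markers 4 were higher and 1 lower in LIGHT-Undiff than in NC-Undiff libraries, with a median log2 fold change of 0.69; their part in the result was not tested. In the 10-library fit, which holds the same 6 undifferentiated libraries with a smaller estimate of the spread, 7 genes were higher and 1, Ier3, was lower, among 13150 genes of which 22.3% were higher and 22.1% lower. From bulk RNA, a change in the number of cells that express a gene and a change in RNA per cell cannot be told apart.

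After differentiation, 0 of the 10 genes passed the test between LIGHT and control cells in 12 libraries as labelled, and in each of them the groups overlapped, while 6.77% of all genes tested had groups that did not overlap. Of all genes 0% were called higher and 0% lower by edgeR, with 523 at an unadjusted p under 0.05, 2 of them among the 10 (Ier2 and Ier5). DESeq2 called 1 gene and limma on FPKM 0, and neither called any of the 10. In 10 libraries 5 of the genes were higher (Egr1, Egr3, Ier2, Ier5, Zfp36), 3 were lower (Ier3, Btg2, Atf3) and 2 did not pass (Egr2, Nr4a1), where 14.6% of all genes were higher and 16.4% lower. In 10 of 10 genes the LIGHT-Diff and NC-Diff libraries then did not overlap, with 2 libraries a group, as in 67.1% of all genes tested. The median log2 fold change of the 10 genes was 0.37, beside -0.01 over all genes.

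**Figure D3:**
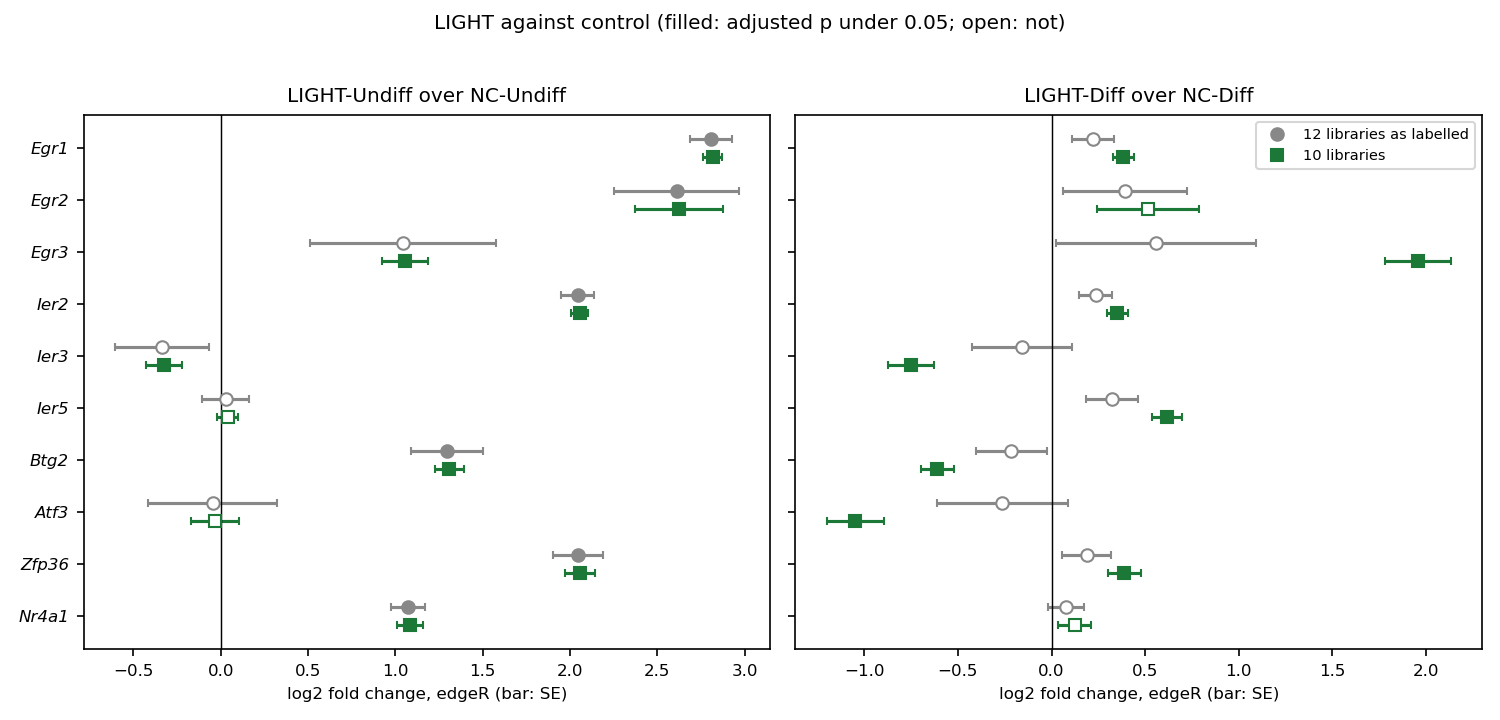
Log2 fold change of LIGHT over control cells for the 10 genes, before (left) and after (right) differentiation, with standard errors from edgeR. Grey circles are the fit of 12 libraries as labelled and green squares that of 10 libraries; filled points have an adjusted p under 0.05. Before differentiation Egr1, Egr2, Ier2, Btg2, Zfp36 and Nr4a1 are filled in both fits, and after differentiation no grey point is filled while 8 green ones are.

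On differentiation in LIGHT cells 3 of the 10 genes rose (Egr1, Btg2, Zfp36), 1 fell (Ier5) and 6 did not pass the test, among all genes of which 29.5% rose and 29.1% fell. In control cells 7 rose (Egr1, Egr2, Ier2, Btg2, Atf3, Zfp36, Nr4a1), 1 fell (Ier5) and 2 did not pass, among all genes of which 32.2% rose and 31.7% fell. The groups did not overlap in 4 genes in LIGHT cells (Egr2, Ier5, Btg2, Atf3), against 66.6% of all genes, and in 7 in control cells, against 67.7%. The median log2 fold change of the 10 genes was 0.13 in LIGHT cells and 1.24 in control cells, beside 0.00 over all genes in both lines. The count in LIGHT cells was 7 without NC-Diff 1, a library of neither group compared. It entered there only through the filter, the scaling and the estimate of the spread.

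In 10 libraries, 4 genes rose in LIGHT cells (Egr1, Btg2, Atf3, Zfp36) and 2 fell (Egr2, Ier5), where 32.3% of all genes rose and 31.9% fell. In control cells 8 rose and 2 fell (Egr3, Ier5), where 35.8% of all genes rose and 34.9% fell. The groups did not overlap in 7 genes in LIGHT cells, against 76.2% of all genes tested, and in 10 in control cells, against 79.2%. The share of rising genes in LIGHT cells was thus not far from that of all genes in either fit. The comparison of the lines before differentiation and that of stages in control cells share the 3 NC-Undiff libraries, so their fold changes are not independent of each other.

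**Figure D4:**
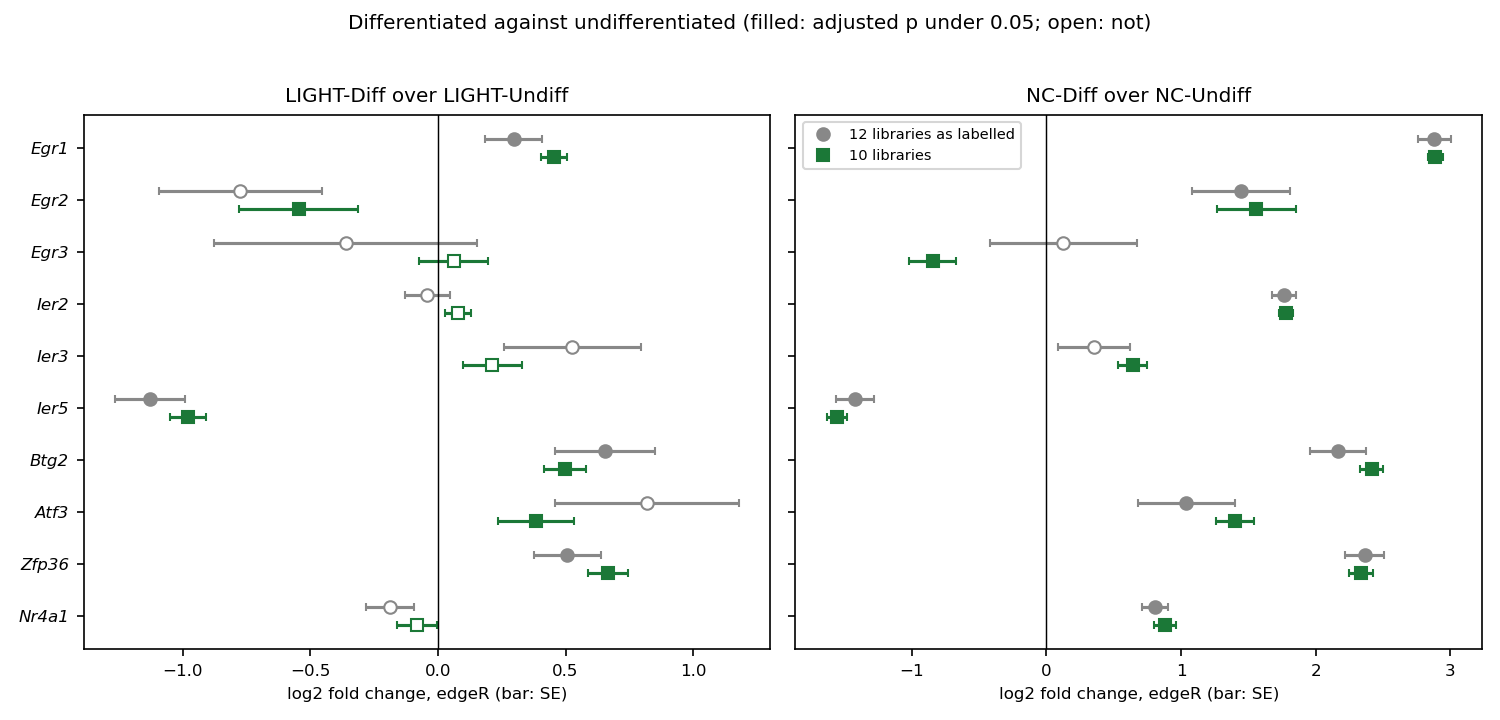
Log2 fold change of differentiated over undifferentiated cells for the 10 genes in LIGHT cells (left) and control cells (right), with standard errors from edgeR. Grey circles are 12 libraries as labelled, green squares 10 libraries, and filled points have an adjusted p under 0.05. The axes differ in range; Egr1 lies at 0.30 in LIGHT cells and 2.88 in control cells, and Ier5 lies below 0 in both.

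The difference between these responses was tested as the interaction of line and stage, which is the log2 change in LIGHT cells minus that in control cells. It was negative and passed the test for 6 of the 10 genes, positive and past the test for 0, among all genes of which 5.08% had a positive and 4.26% a negative interaction. Egr1 had the largest difference of the 10, with a change of 0.30 in LIGHT and 2.88 in control cells and an interaction of -2.58 (SE 0.16, adjusted p = 9.30e-06, edgeR). Egr2 followed at -2.22 (SE 0.48, adjusted p = 0.0140, edgeR), then Zfp36 at -1.86 (SE 0.19, adjusted p = 0.000283, edgeR) and Ier2 at -1.81 (SE 0.13, adjusted p = 2.28e-05, edgeR). Btg2 was at -1.51 (SE 0.28, adjusted p = 0.00635, edgeR) and Nr4a1 at -0.99 (SE 0.14, adjusted p = 0.00120, edgeR). These 6 are the genes with higher LIGHT-Undiff than NC-Undiff levels, and that difference is itself one of the terms of the interaction.

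In 10 libraries all 10 genes had an interaction past the test, where 14.9% of all genes had a positive and 16.1% a negative one. It was positive for Egr3 (0.91, SE 0.22, adjusted p = 0.00392, edgeR) and Ier5 (0.58, SE 0.10, adjusted p = 0.000218, edgeR) and negative for the other 8. Atf3 was at -1.02 (SE 0.20, adjusted p = 0.000832, edgeR) and Ier3 at -0.43 (SE 0.16, adjusted p = 0.0491, edgeR). The Ier3 call was lost with RLE scaling (adjusted p = 0.0532), library totals (0.126) and DESeq2 (0.0648). It was also lost without any 1 of NC-Undiff 1 or 2, LIGHT-Undiff 1 or 2, or the Diff libraries numbered 2 and 3 of either line (adjusted p = 0.0682 to 0.163). Leaving out a Diff library there leaves 1 in its group, and the spread then comes from the other groups.

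Per transcript length, Ier2 was the most abundant of the 10 in every group, at 171 ± 29.0 FPKM in LIGHT-Diff, 141 ± 3.75 in NC-Diff, 183 ± 6.13 in LIGHT-Undiff and 45.4 ± 1.84 in NC-Undiff libraries (fragments scaled to gene length and library total, SD, n = 3). Egr1 was second in LIGHT-Diff (92.6 ± 20.3), NC-Diff (77.4 ± 3.20) and LIGHT-Undiff (78.7 ± 4.18) and the fourth in NC-Undiff (11.4 ± 0.47). In NC-Undiff libraries Ier5 (32.9 ± 2.34 FPKM) and Ier3 (29.0 ± 1.73 FPKM) stood above Egr1. The lowest of the 10 was Egr3 in LIGHT-Diff (2.11 ± 1.28), NC-Diff (1.42 ± 1.26) and LIGHT-Undiff (2.82 ± 0.14), and Egr2 in NC-Undiff libraries (0.753 ± 0.504). Egr2 was at 2.54 ± 0.80 FPKM in LIGHT-Diff and 1.88 ± 0.25 in NC-Diff libraries, within the spread of Egr3 in both groups. In 10 libraries Egr2 stood at 3.00 ± 0.071 FPKM beside 2.85 ± 0.26 for Egr3 in LIGHT-Diff, and at 1.99 ± 0.25 FPKM beside 0.690 ± 0.014 for Egr3 in NC-Diff (SD, n = 2), so the overlap in NC-Diff came with NC-Diff 1.

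The genes most like each of the 10 were those with the smallest root mean square difference between centred log2 CPM profiles over the 12 libraries, among 11417 tested genes that averaged 1 CPM or more. Egr1 and Zfp36 had the same nearest pair, Afap1l2 (0.17 from Egr1 and 0.19 from Zfp36) and Bmf (0.29 and 0.20), and were each other's next nearest gene at 0.29. Ier2 was nearest to Gas7 (0.20) and Zfp36l1 (0.25), and Egr2 to Zfp36l1 (0.52) and Ier2 (0.53), the loosest match of the 10. Nr4a1 was nearest to Prickle3 (0.11) and Mtss1l (0.12), though its range over the libraries was also the smallest. Egr3 was nearest to Rrad (0.12) and Tmem176b (0.18), and Nr4a1, its nearest of the 10, came at place 2085. The nearest of the 10 came later still for Nr4a1 (Ier2, place 3466) and for Ier5 (Egr3, place 6787). Ier3 was nearest to Lgals3 (0.13) and Mrps10 (0.14), Atf3 to Fam107b (0.18) and Plod2 (0.19), Btg2 to Tcf7l1 (0.15) and Krt13 (0.20), and Ier5 to Csrp1 (0.091) and Cald1 (0.097). The 12 points of a profile fall into the 4 groups, so these distances describe the group pattern and the 2 displaced libraries together.

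Other genes of the pathway moved in both directions. In parentheses after the counts of a list stand the shares of all genes called in the same directions. Of the 11 tested of 13 AP-1 genes, which encode the FOS, JUN and small MAF partners, 5 were higher and 3 lower in LIGHT than in control cells before differentiation, where 12.3% of all genes were higher and 14.2% lower. Their median log2 fold change was 0.06. In the 10-library fit 5 were again higher and 3 lower (all genes 22.3% and 22.1%). The smallest p there was that of Fosl1, which was lower in LIGHT cells (log2 -2.14, SE 0.07, adjusted p = 4.90e-14, edgeR). Fosl1 stood at 13.1 ± 0.87 CPM in LIGHT-Undiff libraries, against 58.1 ± 2.30 CPM in NC-Undiff libraries. Fos was at 26.7 ± 6.67 CPM in LIGHT-Undiff libraries, against 2.27 ± 0.14 CPM in NC-Undiff libraries (log2 3.55, SE 0.21, adjusted p = 1.19e-06, edgeR). After differentiation Fos was at 22.0 ± 0.93 CPM in LIGHT-Diff and 19.9 ± 3.61 CPM in NC-Diff libraries. Fosb was at 18.2 ± 7.76 CPM in LIGHT-Undiff libraries, against 1.49 ± 0.09 CPM in NC-Undiff libraries, and Jund was higher by 0.84 on the log2 scale (SE 0.11, adjusted p = 0.000265, edgeR). On differentiation 3 AP-1 genes rose and 6 fell in LIGHT cells (all genes 29.5% and 29.1%), and 5 rose and 4 fell in control cells (all genes 32.2% and 31.7%). Fosb fell by 3.35 on the log2 scale in LIGHT cells (SE 0.33, adjusted p = 2.33e-06, edgeR), and Fos rose by 3.12 in control cells (SE 0.21, adjusted p = 5.54e-08, edgeR). The interaction was negative for 4 and positive for 0 of the 11, where 4.26% of all genes had a negative and 5.08% a positive one. Fos was at -3.40 (SE 0.27, adjusted p = 4.68e-05, edgeR), Fosb at -3.56 (SE 0.49, adjusted p = 0.00123, edgeR) and Jund at -0.77 (SE 0.16, adjusted p = 0.00996, edgeR). In 10 libraries 3 AP-1 genes were higher and 3 lower in LIGHT-Diff than in NC-Diff (all genes 14.6% and 16.4%), led by Fosl1 (log2 -1.30, adjusted p = 1.22e-10, edgeR) and Junb (log2 0.85, adjusted p = 1.80e-08, edgeR).

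Of 42 tested of 45 other immediate and delayed early genes, 7 were higher and 9 lower in LIGHT than in control cells before differentiation (all genes 12.3% and 14.2%), with a median log2 fold change of 0.01. Dusp4, a nuclear phosphatase of MAP kinases, was at 3.34 ± 0.64 CPM in LIGHT-Undiff libraries, against 17.9 ± 2.14 CPM in NC-Undiff libraries. Sik1, a kinase that restrains CREB coactivators, was at 63.6 ± 4.81 CPM in LIGHT-Undiff libraries, against 31.9 ± 1.44 CPM in NC-Undiff libraries (log2 1.00, SE 0.08, adjusted p = 1.15e-05, edgeR). On differentiation 15 rose and 18 fell in LIGHT cells, where 29.5% of all genes rose and 29.1% fell, and 15 rose and 17 fell in control cells, where 32.2% rose and 31.7% fell. Dusp4 rose by 3.91 on the log2 scale in LIGHT cells (SE 0.14, adjusted p = 2.16e-10, edgeR), and its interaction was 2.45 (SE 0.18, adjusted p = 2.28e-05, edgeR), of opposite sign to that of Egr1. Plk2, a polo-like kinase, fell by 2.23 in LIGHT cells (SE 0.08, adjusted p = 4.41e-10, edgeR) and by 1.85 in control cells (SE 0.08, adjusted p = 1.68e-09, edgeR). The interaction was positive for 5 and negative for 2 of the 42 in 12 libraries (all genes 5.08% and 4.26%), and positive for 11 and negative for 16 of 43 in 10 libraries (all genes 14.9% and 16.1%).

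Of the 16 kinases and transcription factors upstream of the immediate early genes, all tested, 4 rose and 6 fell on differentiation in LIGHT cells (all genes 29.5% and 29.1%), and 5 rose and 7 fell in control cells (all genes 32.2% and 31.7%). Srf, which encodes the factor that binds CArG boxes, fell by 0.64 on the log2 scale in LIGHT cells (SE 0.10, adjusted p = 0.000122, edgeR) and by 0.91 in control cells (SE 0.10, adjusted p = 5.01e-06, edgeR). Its coactivator gene Mkl1 fell by 0.59 in LIGHT cells (SE 0.09, adjusted p = 0.000106, edgeR) and by 0.92 in control cells (SE 0.09, adjusted p = 1.81e-06, edgeR), and the ETS partner gene Elk3 fell by 0.85 in LIGHT cells and by 1.11 in control cells. Before differentiation 2 of the 16 were higher and 2 lower in LIGHT than in control cells (all genes 12.3% and 14.2%), with Mapk3, which encodes ERK1, higher by 0.40 (SE 0.05, adjusted p = 0.000277, edgeR). Nab1 and Nab2, which encode corepressors that bind EGR proteins, did not pass the test between the lines before differentiation (log2 0.07 and 0.11), where Egr1 and Egr2 were higher.

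Among relatives of Zfp36 and mRNAs known as its targets, 6 of 10 were tested, of which 2 were higher and 1 lower in LIGHT-Undiff than in NC-Undiff libraries, where 12.3% of all genes were higher and 14.2% lower. Zfp36l1, a paralogue, was at 193 ± 11.2 CPM in LIGHT-Undiff libraries, against 54.7 ± 1.32 CPM in NC-Undiff libraries (log2 1.81, SE 0.15, adjusted p = 1.09e-05, edgeR). The known target mRNAs went both ways, since Cxcl1 was higher by 1.03 (SE 0.13, adjusted p = 0.000157, edgeR) and Ccl2 lower, at -1.19 (SE 0.24, adjusted p = 0.00396, edgeR). On differentiation 1 rose and 3 fell in LIGHT cells (all genes 29.5% and 29.1%), and 2 rose and 3 fell in control cells (all genes 32.2% and 31.7%). Ccl2 fell by 3.36 on the log2 scale in LIGHT cells (SE 0.29, adjusted p = 7.06e-07, edgeR) and by 4.46 in control cells (SE 0.29, adjusted p = 4.65e-08, edgeR). Vegfa, a target too, rose by 1.26 in LIGHT cells (SE 0.12, adjusted p = 2.39e-06, edgeR) and by 1.71 in control cells (SE 0.13, adjusted p = 1.21e-07, edgeR).

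Of the 6 tested of 7 relatives and partners of Btg2, 4 rose and 1 fell on differentiation in each line, where 29.5% of all genes rose and 29.1% fell in LIGHT cells, and 32.2% rose and 31.7% fell in control cells. Tob1, an antiproliferative relative, stood at 163 ± 8.99 CPM in LIGHT-Diff and 170 ± 20.4 CPM in NC-Diff libraries, against 57.9 ± 2.17 CPM in LIGHT-Undiff and 39.4 ± 2.03 CPM in NC-Undiff libraries. It was the 1 gene of the 6 higher in LIGHT-Undiff than in NC-Undiff (log2 0.55, SE 0.09, adjusted p = 0.000811, edgeR) and the 1 with an interaction past the test (-0.61, SE 0.12, adjusted p = 0.00847, edgeR). Btg1 rose by 1.39 on the log2 scale in LIGHT cells (SE 0.13, adjusted p = 1.36e-06, edgeR) and by 1.72 in control cells (SE 0.13, adjusted p = 1.54e-07, edgeR). In 10 libraries 4 of the 6 were lower in LIGHT-Diff than in NC-Diff and 0 higher, where 16.4% of all genes were lower and 14.6% higher, with Btg3 at -0.67 (SE 0.13, adjusted p = 0.000765, edgeR) and Btg1 at -0.37 (SE 0.06, adjusted p = 4.34e-05, edgeR).

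Of the 8 ATF3 partners and integrated stress response genes, all tested, 1 rose and 3 fell on differentiation in LIGHT cells in 12 libraries (all genes 29.5% and 29.1%). In control cells 4 rose and 1 fell (all genes 32.2% and 31.7%), and 0 passed between LIGHT-Diff and NC-Diff, as for all genes. In 10 libraries 1 rose and 5 fell in LIGHT cells (all genes 32.3% and 31.9%), and 7 rose and 1 fell in control cells (all genes 35.8% and 34.9%). Between LIGHT-Diff and NC-Diff 6 were then lower and 0 higher, where 16.4% of all genes were lower and 14.6% higher, with a median log2 fold change of -0.41. Leaving out the pair moved the calls over all genes as well, to 4079 in 10 libraries against 0 in 12 for that comparison, and to 4077 against 1214 for the interaction. Chac1, which degrades glutathione, was lower in LIGHT-Diff, at -0.96 on the log2 scale (SE 0.06, adjusted p = 1.33e-09, edgeR). Ddit3, which encodes CHOP, was at -0.76 (SE 0.07, adjusted p = 7.45e-08, edgeR) and Trib3, a CHOP target, at -0.66 (SE 0.06, adjusted p = 9.10e-08, edgeR). All 8 then had a negative interaction past the test, where 16.1% of all genes had one. Before differentiation 3 of the 8 were higher and 0 lower in LIGHT than in control cells in 12 libraries (all genes 12.3% and 14.2%), and 6 higher and 0 lower in 10 (all genes 22.3% and 22.1%), where Atf3 itself did not pass the test in either fit.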

How the data were processed

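RNA was extracted with TRIzol and made into libraries with Illumina protocols, per the labels' protocols, and the 12 libraries were grouped by line and stage as labelled. The authors deposited 1 table per library with expected counts and FPKM per gene, per the file headers. Expected counts, as deposited, are estimates that need not be whole, and each of the 120 values of the 10 genes had only zeros in its 2 decimals. FPKM, as deposited, divide by gene length and library total. Per the submitters' processing notes the genome build was mm8, and the sources used here name no aligner, counting program or strand setting. Since a table leaves out genes at 0, unlisted genes were set to 0.

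Expected counts were rounded and tested in edgeR 4.0.16 (R 4.3.3) by quasi-likelihood with TMM scaling and filterByExpr (minimum count 10). The fit took all 12 libraries and 1 coefficient per group, and a gene passed at a Benjamini-Hochberg adjusted p under 0.05. SE is the absolute log2 fold change over the square root of F, and CPM are TMM-scaled. The same fit was made without LIGHT-Diff 1 and NC-Diff 1 (13150 genes tested). Alternatives were DESeq2 1.42.0, limma 3.58.1 on log2(FPKM + 0.1), RLE scaling, library totals, no filter, a filter of 1 CPM in 3 libraries, a replicate block, only the groups compared, and each library left out. The fits were tested on simulated data first. Precision is set by counting error, by the spread between libraries and by their number. There were 3 libraries a group, but 2 in each Diff group of the fit without LIGHT-Diff 1 and NC-Diff 1.

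The 10 genes and the gene lists were chosen with earlier results of these data known. The rule for names was all 10 genes, up to 3 genes with the smallest p of each other list in a comparison, Tnfsf14, and the 2 most similar genes to each of the 10.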

Additional observations from a re-analysis of the deposited data

Results flagged for a closer look

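The change on differentiation differed between the lines in 6 of the 10 genes, by a test of the difference itself (interaction in edgeR's quasi-likelihood fit, Benjamini-Hochberg adjusted over all genes). Of all genes 5.08% had a positive and 4.26% a negative interaction past this test in 12 libraries. Values are the log2 change in LIGHT cells minus that in control cells, over 12 libraries as labelled. They were -2.58 for Egr1 (adjusted p = 9.30e-06), -2.22 for Egr2 (adjusted p = 0.0140), -1.86 for Zfp36 (adjusted p = 0.000283), -1.81 for Ier2 (adjusted p = 2.28e-05), -1.51 for Btg2 (adjusted p = 0.00635) and -0.99 for Nr4a1 (adjusted p = 0.00120). Without LIGHT-Diff 1 and NC-Diff 1 the values were -2.43 for Egr1, -2.10 for Egr2, -1.67 for Zfp36, -1.70 for Ier2, -1.92 for Btg2 and -0.96 for Nr4a1. In all 6 genes the 3 NC-Undiff libraries lay below the 9 others, and the share of all genes with this arrangement is not given here. Pairs of groups did not overlap in 52.3% of all genes between LIGHT-Undiff and NC-Undiff, and in 67.7% between NC-Diff and NC-Undiff.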

How the results depend on the processing

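Over 1740 values of the 10 genes under alternatives, 1641 kept their direction and their side of the threshold, 39 lost the call, 35 gained it and 25 changed sign. Leaving out LIGHT-Diff 1 and NC-Diff 1, whose Tnfsf14 goes against their labels, changed most. The genes called then numbered 8 between LIGHT-Diff and NC-Diff, against 0 as labelled, and 10 for the interaction, against 6. Egr3 turned to 0.062 for differentiation in LIGHT cells, -0.84 in control cells and 0.91 for the interaction, Ier2 to 0.079 in LIGHT cells, and Ier3 to -0.43 for the interaction (log2). With limma on FPKM, Egr3 was at -0.27 in control cells.

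Leaving out 1 library at a time gave 3 to 7 called genes for differentiation in LIGHT cells (7 without NC-Diff 1), 7 to 9 in control cells, 6 to 7 before differentiation, 0 to 0 after it and 6 to 6 for the interaction. In the 10 libraries these ranges were 4 to 6, 10 to 10, 7 to 8, 8 to 9 and 9 to 10. Leaving out a differentiated library of the 10 leaves 1 in its group, which is assumed to vary like the other groups. Log2 values that turned sign when 1 library was left out ran over these ranges. In LIGHT cells Egr3 ran from -0.70 to 0.061 and Ier2 from -0.11 to 0.077, and in control cells Egr3 ran from -0.84 to 0.47. Before differentiation Ier5 ran from -0.024 to 0.079 and Atf3 from -0.11 to 0.025. After it Atf3 ran from -0.71 to 0.055, Ier3 from -0.48 to 0.033 and Nr4a1 from -0.013 to 0.17. The interaction ran from -0.83 to 0.49 for Egr3, from -0.16 to 0.36 for Ier3 and from -0.67 to 0.089 for Atf3. In the 10 libraries Egr3 ran from -0.034 to 0.16 in LIGHT cells, and before differentiation Ier5 from -0.0092 to 0.090 and Atf3 from -0.096 to 0.036. The cause was not tested.

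Over all genes, the count called before differentiation was 3446, against 5601 with only the groups compared, 5836 in the 10 libraries and 2238 without LIGHT-Undiff 2. After differentiation it was 0, against 4079 in the 10 libraries. For the interaction it was 1214, against 4077 in the 10 libraries and 675 to 1868 with 1 library left out. Library totals moved the median of all genes in control cells to -0.11 and the share of calls that rose to 42.1%, against 50.4% with TMM. In the interaction that share was 62.4%, against 54.4%, and the same 6 of the 10 genes had a negative value and passed. No pairing by replicate number was seen, as 0 of 18 same-numbered pairs had deviations correlated above 0.1 (range -0.62 to 0.097). LIGHT-Diff 1 and NC-Diff 1, which stood apart from their groups, entered this check, so it cannot decide whether the libraries were paired. With the replicate block, 3, 8, 6, 0 and 6 of the genes were called in LIGHT cells, in control cells, before and after differentiation and for the interaction, and 747 genes had an interaction. The block ended the Egr1 call in LIGHT cells (adjusted p = 0.0528), and in the 10 libraries those of Egr2 in LIGHT cells (adjusted p = 0.148) and Ier3 for the interaction (adjusted p = 0.0696).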
